A study of Sorghum bicolor with 9 samples.

Results

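The leaf transcriptome of Sorghum bicolor plants in severely saline-alkali soil was set against that of control plants, gene by gene over the whole table. All 35281 genes of the deposited count table were taken, in 6 of the study's 9 libraries. The 3 severe libraries came from soil with a salt content of 5‰ and a pH of 8.1, and the 3 control libraries from plants under normal conditions. Another tag of the severe samples gives the salt with the same digit in percent, which would be 10 times as much. The salt content and pH of the control soil, the length of the exposure and the number of plants behind a library are not stated in the labels. All plants were wild type and of the line BTx623, an inbred grain sorghum whose genome serves as the species reference, and leaves were taken when the seedlings had 4 leaves. Each group held 3 biological replicates. The moderately saline-alkali group of the study was not used here, except where a fit over all 9 libraries is named.

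Salt in the soil lowers the water that roots can take up and brings sodium into the plant, and a high pH makes mineral nutrients harder to take up. Plants are known to meet this with the hormone abscisic acid, which closes stomata and switches on protective genes, with chaperones and antioxidant enzymes, and with pumps and exchangers that move sodium out of the cytosol. Leaf growth, protein synthesis and photosynthesis are known to slow under such stress, and old leaves may senesce.

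In the levels below, unless an overlap is stated, the 3 severe values of a named gene lie wholly on 1 side of the 3 control values. Genes named by size or adjusted p were chosen on that condition, so their separation is no result. Levels are given as normalised CPM, the reads of a gene per 1000000 reads of a library total adjusted by the TMM method, and per-library values follow the order of replicates 1, 2 and 3. A change is the log2 of severe over control from edgeR's quasi-likelihood fit over the 6 libraries. The standard error (SE) beside it was back-calculated from the change and its p, and is not a spread measured by the fit. A gene is said to have risen or fallen where the Benjamini-Hochberg adjusted p of edgeR's test was under 0.05. Positions are those in the table. The sources used here do not give its genome build, read counter or strandedness, so reads of a gene and of an overlapping or near-identical gene may be shared. In whole leaves, fewer cells of a type and less RNA per cell cannot be told apart.

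Assigned reads ranged from 17792497 to 21842574 per severe library and from 19481164 to 20923148 per control library. A count of 0 allows up to 0.237 normalised CPM in severe library 1 and 0.130 to 0.147 in the others, for counting error only. The biological coefficient of variation was 60.0% among severe libraries and 23.6% among control libraries. Among genes with a mean of at least 5 CPM, the highest severe library was 2.01 times the lowest in the median gene, against 1.22 times in control. Severe library 1 had a TMM factor of 0.616, against 0.953 and 1.15 in the other severe libraries and 1.07 to 1.18 in control. Of the genes that rose, 64.4% had their highest severe value in library 1. The leaf label could not be checked by its own markers, since no family label of the table matched the leaf list (chlorophyll-binding proteins, small subunit of Rubisco, phosphoenolpyruvate carboxylase). The root, seed and pollen lists matched no gene either. Neither of the meristem-type genes tested (KNOX and ELK labels) was called. Sobic.003G144400 read 23.5, 31.9 and 32.3 CPM in severe libraries and 43.6, 39.6 and 51.8 in control, a difference that passed with DESeq2 and in the fit over all 9 libraries, and Sobic.001G140200 reached no more than 1.71 CPM in any library.

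Most expressed genes differed between the groups. Of 20926 genes tested, 12659 passed the test (60.5%), 6360 higher in severe leaves (30.4%) and 6299 lower (30.1%). All counts of family members below are to be read against these shares. The median change was 2.38 among the genes that rose and -2.59 among those that fell, against -0.13 over all tested genes. Changes of at least 4-fold were found in 3791 genes higher (18.1%) and 4212 lower (20.1%), and changes of at least 16-fold in 1604 higher and 1321 lower. The 3 severe values lay wholly above or below the 3 control values in 15464 genes (73.9%), and in 12553 of those that passed. A further 8085 genes had counts too low to be tested, and 6270 had none in these libraries. Scaled by total counts alone, the median of all genes moved by 0.31 downward, and 4734 rose and 6049 fell.

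The exchange of transcripts was larger by reads than by genes. Genes that rose held 78.6%, 67.3% and 68.6% of the reads in severe libraries, against 14.0%, 15.1% and 14.0% in control libraries. Genes that fell held 3.93%, 9.01% and 7.41% of the reads in severe libraries, against 59.5%, 56.6% and 58.1% in control libraries. The ranges of the groups lie far apart for both classes, and severe library 1 stands at the extreme of both. The classes were set by the calls on these libraries, so the shares describe size and are no test. Up to 1000 CPM, the share of genes that rose was larger at higher levels. It was 17.2% among genes under 1 CPM on average, 20.7% from 1 to 10 CPM, 36.6% from 10 to 100 CPM and 53.7% from 100 to 1000 CPM, while the share that fell was 33.7%, 34.2%, 27.3% and 22.2% in the same classes. Above 1000 CPM, 36 of 99 genes rose and 48 fell. These levels are means over the severe and control libraries together, so a gene's own change affects its class. How the power of the test differs with level was not examined.

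**Figure D1:**
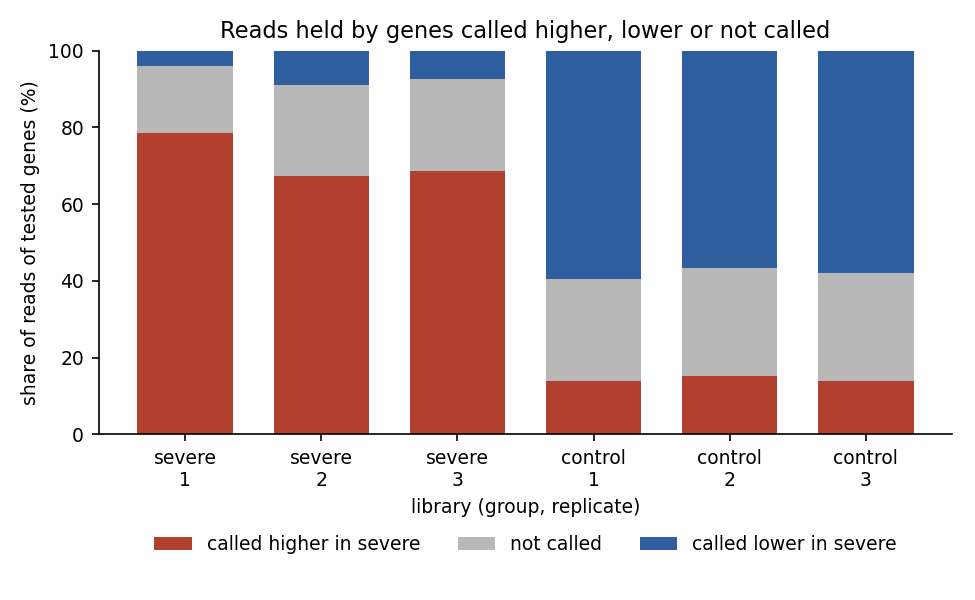
Share of the reads of tested genes (%, y axis) held by genes called higher, not called and called lower, stacked for each of the 3 severe and 3 control libraries (x axis). Genes called higher hold at least 67.3% of reads in every severe library and at most 15.1% in every control library.

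The genes with the most reads traded places. Sobic.002G055700, which carries no family label (chromosome 2, 5306080 to 5307672), read 49193, 29308 and 15928 CPM in severe libraries, against 72.1, 73.0 and 20.2 in control libraries. It had the highest mean CPM of all genes in severe leaves, with a log2 change of 9.16 (SE 2.43, edgeR quasi-likelihood test, Benjamini-Hochberg adjusted p = 0.00138). Its neighbour Sobic.002G055600, also without a label, read 34226, 9367 and 4755 CPM in severe libraries, against 95.8, 133 and 46.8 in control libraries, with a change of 7.46 (SE 2.13) that was 6.32 without severe replicate 1 and 6.82 under total-count scaling. Both have their highest value in severe library 1 and their lowest in severe library 3, and both clear the control libraries by far in each. Sobic.001G177000 had the highest mean in control leaves and no label, and read 34.6, 284 and 32.7 CPM in severe libraries, against 16028, 12189 and 11635 in control libraries. It fell by 6.83 (SE 2.06), or by 8.62 without severe replicate 2, the severe library in which it was highest. Reads in 1 group alone were shown by Sobic.009G215700, again unlabelled (chromosome 9, 56036800 to 56038103), which read 8998, 3397 and 2462 CPM in severe libraries, against 0, 0 and 0 in control libraries. With no count in control it was at least 99106-fold higher against a limit of 3 counts over the group, for counting error only. None of the 10 genes with the highest means in control leaves carries a family label. In severe leaves the labelled ones among the 10 were the NAC factor Sobic.003G379700, described below, and the RNA-recognition-motif gene Sobic.001G141300. It read 7725, 7143 and 6418 CPM in severe libraries, against 3805, 3363 and 3742 in control libraries. Although its groups do not overlap, that gene did not pass edgeR's quasi-likelihood test (change 0.96, SE 0.59, Benjamini-Hochberg adjusted p = 0.140), and it did with DESeq2.

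Most heat shock factors and 10 of 19 HSP70 genes rose. Among heat shock factors, a family that includes activators of chaperone genes, 15 of 21 tested members rose and 3 fell (median log2 change 1.80). The label does not tell which members are activators. Sobic.004G101400 (chromosome 4, 9370582 to 9372529) read 90.4, 126 and 109 CPM in severe libraries, against 1.48, 1.08 and 1.14 in control libraries. All severe libraries stand far above all control libraries, a change of 6.45 (SE 1.23, edgeR quasi-likelihood test, Benjamini-Hochberg adjusted p = 0.000157). The family was not uniform, for Sobic.010G170600 (chromosome 10, 50202452 to 50204430) read 1.19, 2.74 and 1.18 CPM in severe libraries, against 48.0, 45.1 and 61.0 in control libraries, a change of -4.90 (SE 1.11). The severe libraries hold only traces of the control level. Among HSP70 chaperones, which bind unfolded proteins, 10 of 19 tested members rose and 2 fell (median log2 change 1.47). Sobic.009G163900 (chromosome 9, 52032825 to 52036139) read 759.9, 299.9 and 313 CPM in severe libraries, against 4.84, 2.86 and 2.72 in control libraries, a change of 7.04 (SE 1.57). Severe library 1 is the highest, and the lowest severe library is still far above the highest control library. In the opposite direction, Sobic.008G088200 (chromosome 8, 18774401 to 18779411) read 121, 169 and 160.3 CPM in severe libraries, against 398, 363 and 374 in control libraries, with even levels within each group and a change of -1.33 (SE 0.43, edgeR quasi-likelihood test, Benjamini-Hochberg adjusted p = 0.00557). Of 70 DnaJ proteins, the co-chaperones of HSP70, 27 rose (38.6%) and 18 fell (25.7%, median 0.44), closer to the shares over all genes.

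Universal stress proteins, small nucleotide-binding proteins induced by many stresses, rose in most members. In the Usp family, 16 of 22 tested members rose and 1 fell (median log2 change 2.31). Sobic.003G319000 (chromosome 3, 64651869 to 64656143) read 33.9, 34.0 and 45.5 CPM in severe libraries, against 2.78, 4.29 and 2.67 in control libraries. The severe libraries were within a narrow range, and the change was 3.54 (SE 0.80). The single member that fell, Sobic.003G051600, read 19.1, 15.8 and 8.39 CPM in severe libraries, against 33.8, 31.1 and 42.1 in control libraries, and its call was lost without control replicate 3 (change -1.31, SE 0.48). Of 12 genes with a GRAM domain, a lipid-binding domain, 8 rose and 0 fell (median 1.64). Sobic.006G119600 (chromosome 6, 48650424 to 48655514) read 80.1, 63.8 and 72.0 CPM in severe libraries, against 1.57, 1.04 and 0.175 in control libraries, a change of 6.27 (SE 1.55) that was 6.90 without control replicate 1.

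**Figure D2:**
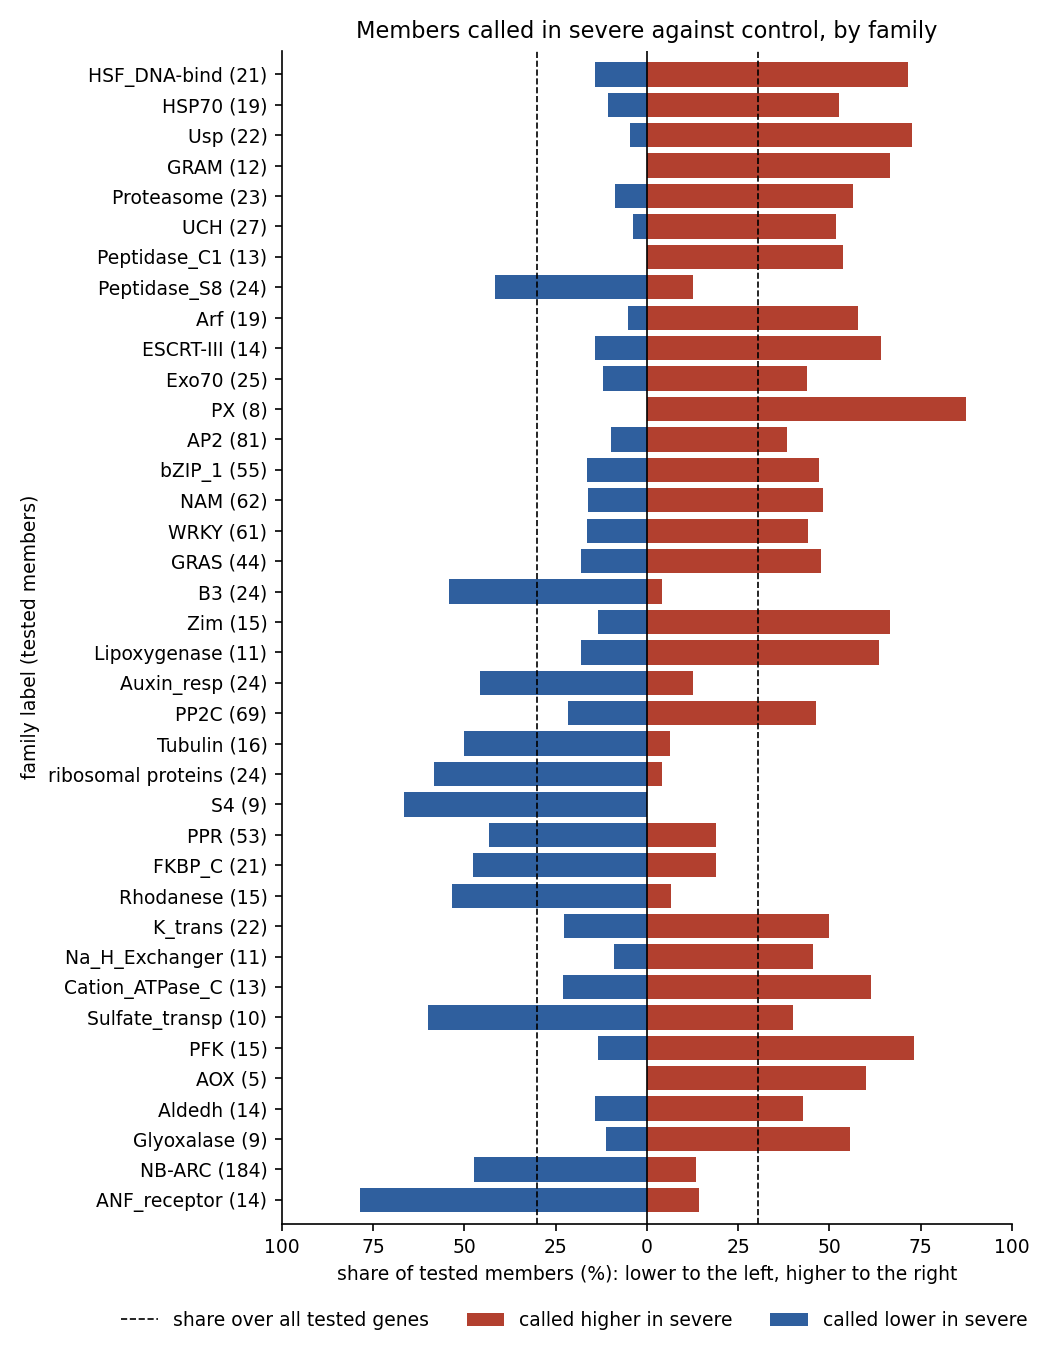
Share of tested members (%, x axis) that were called higher (red, to the right) and lower (blue, to the left) in severe against control, for 38 families ordered by role, with the number tested in brackets and dashed lines at the shares over all tested genes, 30.4% higher and 30.1% lower. Usp, PX and PFK reach furthest to the right, and S4 and ANF_receptor furthest to the left.

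Families of the ubiquitin and proteasome pathway, which tags proteins and breaks them down, differed among themselves. Of 23 proteasome subunits, which form the chamber where tagged proteins are cut, 13 rose and 2 fell (median 0.78). Sobic.010G042800 (chromosome 10, 3304658 to 3307530) read 274, 224 and 222 CPM in severe libraries, against 78.0, 73.9 and 61.1 in control libraries, a change of 1.76 (SE 0.48, edgeR quasi-likelihood test, Benjamini-Hochberg adjusted p = 0.00161). The 3 severe values lie far above the 3 control values and are even among themselves. Sobic.002G394600 (chromosome 2, 74730208 to 74734894), 1 of the 2 subunits that fell, read 16.5, 19.4 and 22.6 CPM in severe libraries, against 35.2, 40.2 and 38.3 in control libraries, a change of -0.96 (SE 0.33). Of 27 ubiquitin hydrolases (UCH), which remove the ubiquitin tag, 14 rose and 1 fell (median 0.78). That count was 9 and 1 without control replicate 1, 2 or 3, and 7 and 1 under total-count scaling. Sobic.002G042600 (chromosome 2, 4066083 to 4081970) read 139.9, 112 and 104 CPM in severe libraries, against 32.3, 29.8 and 30.3 in control libraries, a change of 1.95 (SE 0.49). Values are even in both groups.

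Families that select proteins or attach the tag had shares nearer to, or below, the 30.4% higher over all genes. Of 68 F-box genes, which pick the proteins to be tagged, 10 rose and 17 fell (median -0.31), or 7 and 10 without control replicate 1. Of 46 ubiquitin-conjugating enzymes (UQ_con), 9 rose and 8 fell, or 7 and 10 under total-count scaling. Of 39 U-box genes, a kind of ubiquitin ligase, 13 rose and 7 fell (median 0.52). Those counts were 8 and 7 under total-count scaling, 7 and 5 without control replicate 2 and 8 and 3 without control replicate 3.

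Peptidase families differed in their counts. Of 13 tested papain-type cysteine peptidases (Peptidase_C1), enzymes known from vacuoles and from senescing leaves, 7 rose and 0 fell (median 2.01), or 4 and 1 without control replicate 3. Sobic.009G190600 (chromosome 9, 54267465 to 54271808) read 413, 361 and 271 CPM in severe libraries, against 65.5, 68.1 and 55.7 in control libraries, a change of 2.47 (SE 0.62). Here too the groups are far apart, with severe library 3 the lowest of its group. Of 24 subtilases (Peptidase_S8), serine peptidases that mostly act outside the cell, 3 rose and 10 fell (median -0.76). Of 29 serine carboxypeptidases (Peptidase_S10), 9 rose and 13 fell (median -1.40). The peptidase families also differ in how many members were measurable, since 35 of 48 members of Peptidase_C1 and 30 of 54 of Peptidase_S8 were not tested.

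In the Arf, ESCRT-III and Exo70 families of membrane traffic, more members rose than fell. Of 19 Arf-type small GTPases, which start the budding of vesicles, 11 rose and 1 fell (median 0.98), or 7 and 0 without control replicate 2. Sobic.003G332401 (chromosome 3, 65682270 to 65687556) read 1209, 519 and 515 CPM in severe libraries, against 86.2, 85.2 and 77.7 in control libraries, a change of 3.17 (SE 0.86). Severe library 1 stands above the other severe libraries, and the control libraries are nearly equal. Of 14 ESCRT-III genes, whose products pinch off vesicles inside endosomes, 9 rose and 2 fell (median 1.22). Sobic.010G188100 (chromosome 10, 52874994 to 52878681) read 167, 122 and 93.3 CPM in severe libraries, against 40.5, 40.0 and 31.7 in control libraries, a change of 1.77 (SE 0.51). The severe values are spread by less than the distance between the groups. Of 25 Exo70 genes, subunits of the exocyst that tethers vesicles to the plasma membrane, 11 rose and 3 fell (median 1.02). Sobic.004G153600 (chromosome 4, 48591986 to 48596959) read 117, 64.6 and 98.1 CPM in severe libraries, against 12.5, 15.6 and 10.03 in control libraries, a change of 2.87 (SE 0.71). The Exo70 gene Sobic.003G393500 (chromosome 3, 70465482 to 70469414) read 1.66, 1.97 and 2.31 CPM in severe libraries, against 15.1, 16.1 and 29.7 in control libraries, a change of -3.35 (SE 0.83). Exo70 members thus lay on either side, with low and even severe values in this gene.

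All 8 genes with a PX domain, which binds phosphoinositide lipids of endosomes, were tested, and 7 rose and 0 fell (median 1.205). Under total-count scaling 4 rose. Sobic.005G045300 (chromosome 5, 4294362 to 4308361) read 178, 156 and 127 CPM in severe libraries, against 24.0, 25.7 and 24.7 in control libraries, a change of 2.63 (SE 0.60, edgeR quasi-likelihood test, Benjamini-Hochberg adjusted p = 0.000482). The member that did not pass, Sobic.009G171200, read 9.97, 5.38 and 6.77 CPM in severe libraries, against 5.42, 5.63 and 4.25 in control libraries, and these ranges overlap.

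Transcription factor families tied to stress had more members higher than lower. Of 55 bZIP factors (bZIP_1 label), the family that holds the abscisic acid response factors, 26 rose and 9 fell (median 1.23). Of 62 NAC factors (NAM label), many of them known from drought and senescence, 30 rose and 10 fell (median 1.15). Of 81 AP2/ERF factors, which include the dehydration and ethylene response factors, 31 rose (38.3%) and 8 fell (9.88%, median 0.64). Of 61 WRKY factors, best known from defence and senescence, 27 rose and 10 fell (median 1.00). GRAS factors, which include the DELLA growth repressors, had 21 of 44 higher and 8 lower (median 1.19). The labels do not tell which members hold which of these roles.

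The NAC and AP2 factors named here changed by far more than their family's median. The bZIP and GRAS factors named after them had smaller changes than those NAC and AP2 factors. Sobic.008G021800, a NAC factor (chromosome 8, 1907267 to 1909519), read 175, 133 and 119 CPM in severe libraries, against 1.03, 1.43 and 0.745 in control libraries, a change of 7.05 (SE 1.39, edgeR quasi-likelihood test, Benjamini-Hochberg adjusted p = 0.000183). The NAC factor with the most reads, Sobic.003G379700 (chromosome 3, 69351545 to 69356140), read 12851, 3154 and 1335 CPM in severe libraries, against 124, 149 and 122 in control libraries. The severe values span nearly a factor of 10, and the change of 5.45 (SE 1.66) was 4.14 without severe replicate 1 and 4.78 under total-count scaling. The AP2 factor Sobic.005G051200 (chromosome 5, 4922850 to 4926427) read 50.3, 41.5 and 58.5 CPM in severe libraries, against 0.358, 0.520 and 0.438 in control libraries, a change of 6.81 (SE 1.29). The control libraries hold traces of it. Among bZIP factors, Sobic.007G155900 (chromosome 7, 58990694 to 58996047) read 72.6, 65.1 and 85.1 CPM in severe libraries, against 11.8, 11.8 and 11.6 in control libraries, while Sobic.006G233500 (chromosome 6, 57541249 to 57549389) read 13.7, 14.1 and 15.8 CPM in severe libraries, against 53.1, 58.3 and 63.1 in control libraries. Both are even within each group, with changes of 2.66 (SE 0.59) and -2.0 (SE 0.48). The GRAS factor Sobic.001G421900 (chromosome 1, 70269442 to 70274698) read 42.4, 41.3 and 44.4 CPM in severe libraries, against 11.2, 11.05 and 9.68 in control libraries, a change of 2.002 (SE 0.48). The values are nearly constant within each group.

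Factors with a B3 domain ran the other way. This plant DNA-binding domain is known from regulators of embryos, meristems and auxin response, and 1 rose and 13 fell among the 24 measured (median -1.96). Sobic.001G528200 (chromosome 1, 79213691 to 79218457) read 0.237, 1.49 and 0.393 CPM in severe libraries, against 13.04, 11.2 and 8.24 in control libraries, a change of -3.89 (SE 1.16) that was -5.03 without severe replicate 2. Of 63 genes with the label, 39 were too low to be tested. GATA factors had 2 of 17 higher and 7 lower (median -0.82), or 1 and 4 without control replicate 1 and 2 and 3 without control replicate 3.

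Families of hormone response held members in both directions. Of 15 tested TIFY genes (Zim label), a family that includes the repressors of jasmonate response, 10 rose and 2 fell (median 2.31), or 6 and 1 without control replicate 2 and 6 and 2 without control replicate 3. Sobic.007G132700 (chromosome 7, 55342328 to 55345325) read 58.7, 48.5 and 71.0 CPM in severe libraries, against 12.1, 11.9 and 11.8 in control libraries, a change of 2.31 (SE 0.55). All severe libraries are well above the nearly equal control libraries. Of 11 lipoxygenases, enzymes that oxidise polyunsaturated fatty acids and supply the jasmonate pathway, 7 rose and 2 fell (median 2.35). The lipoxygenase with the most reads in control leaves was one of those that fell. Sobic.004G078600 (chromosome 4, 6461422 to 6465436) read 136, 153 and 57.2 CPM in severe libraries, against 3586, 3510.3 and 2735 in control libraries, a change of -4.83 (SE 1.22, edgeR quasi-likelihood test, Benjamini-Hochberg adjusted p = 0.000949). In contrast, Sobic.001G125900 (chromosome 1, 9916344 to 9921119) read 442, 579 and 529 CPM in severe libraries, against 84.3, 80.9 and 60.2 in control libraries, a change of 2.78 (SE 0.68). The directions of these lipoxygenases are opposite in each severe library.

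Auxin response factors fell more often than they rose. Of 24 genes of the Auxin_resp label, the factors that bind target promoters, 3 rose and 11 fell (median -1.18), or 3 and 7 without control replicate 1 and 2 and 7 without control replicate 2. Sobic.009G231800 (chromosome 9, 57188679 to 57194389) read 1.504, 1.63 and 1.42 CPM in severe libraries, against 15.4, 13.6 and 20.6 in control libraries, a change of -3.44 (SE 0.79). The largest rise of the family was in Sobic.010G073600 (chromosome 10, 6016184 to 6023986), which read 39.0, 23.5 and 39.0 CPM in severe libraries, against 0.179, 0.390 and 0.613 in control libraries, a change of 6.40 (SE 1.41). Severe library 2 is the lowest of its group and still far above control. Small auxin-induced genes (Auxin_inducible) had 9 of 30 higher (30.0%) and 11 lower (36.7%, median -0.55), near the shares over all genes, and those that fell include neighbouring genes described below. Of 18 response regulators, a family of cytokinin signalling and of the clock, 4 rose and 7 fell (median -0.48). Sobic.008G012300 (chromosome 8, 1026398 to 1029238) read 0, 0.0961 and 0.147 CPM in severe libraries, against 55.6, 49.1 and 51.8 in control libraries, a change of -9.07 (SE 1.82). It was near 0 in every severe library.

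Type 2C protein phosphatases, the family of the abscisic acid co-receptors, had 32 of 69 higher and 15 lower (median 0.70). Sobic.009G238600 (chromosome 9, 57652425 to 57655397) read 241, 182 and 244 CPM in severe libraries, against 1.17, 0.476 and 0.964 in control libraries, a change of 7.99 (SE 1.598, edgeR quasi-likelihood test, Benjamini-Hochberg adjusted p = 0.000196). Sobic.010G062500 (chromosome 10, 4909421 to 4914261) did the reverse and read 0.0792, 0.385 and 0.491 CPM in severe libraries, against 39.1, 36.4 and 42.2 in control libraries, a change of -6.84 (SE 1.47). The groups of both genes are far apart in every library. The label alone does not show which phosphatases act in abscisic acid signalling. Among 4 RPE65-type dioxygenases, which cleave carotenoids, 0 rose and 2 fell.

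**Figure D3:**
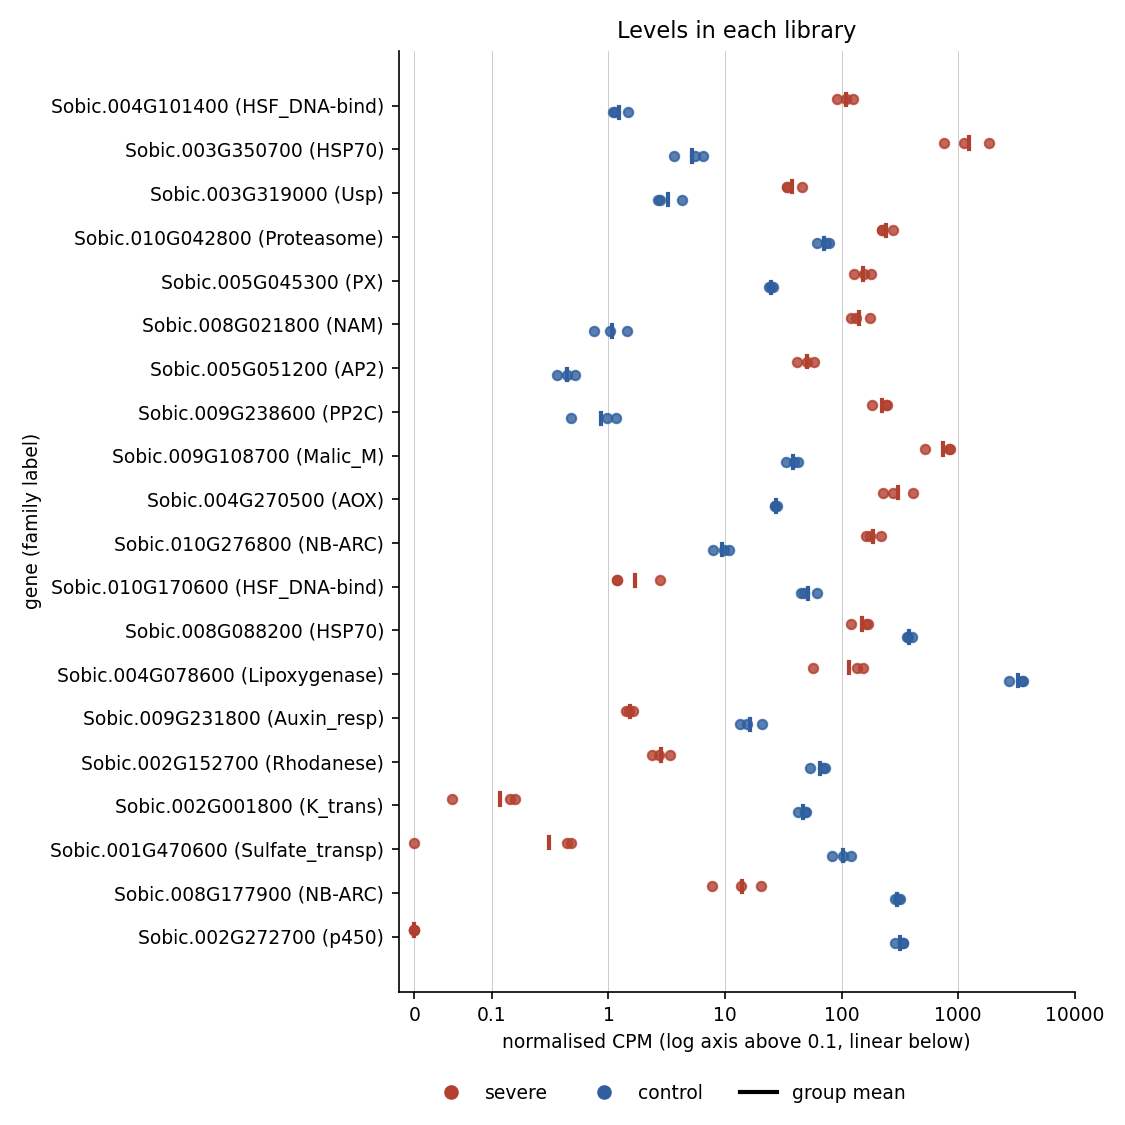
Normalised CPM (x axis, log scale above 0.1 and linear below) of 20 named genes (y axis, family label in brackets) in each of the 3 severe libraries (red, upper row of each gene) and 3 control libraries (blue, lower row), with a bar at each group mean. These genes were drawn from those described in the text. The groups do not overlap for any of them, which was a condition for genes named by size or adjusted p and is no result.

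Tubulin genes and the ribosomal protein genes that carry a label fell more often than they rose. Of 16 tubulins, the subunits of microtubules, 1 rose and 8 fell (median -0.78). Sobic.001G069800 (chromosome 1, 5297793 to 5301176) read 25.3, 21.7 and 23.3 CPM in severe libraries, against 64.3, 52.5 and 46.9 in control libraries, a change of -1.22 (SE 0.37). Sobic.004G053300 (chromosome 4, 4333392 to 4336412), the tubulin that rose, read 37.3, 29.9 and 48.3 CPM in severe libraries, against 5.42, 4.59 and 4.95 in control libraries, a change of 2.95 (SE 0.68). Every severe library is below control in the first of these tubulins and above it in the other. Of 24 tested genes pooled from several ribosomal protein labels, which 28 genes carry, 1 rose and 14 fell (median -1.45). That count was 1 and 8 without control replicate 1 or 2, and 1 and 9 without control replicate 3. By label, 3 of 3 Ribosomal_L31e genes were called lower, against 0 of 4 Ribosomal_L2_C and 0 of 3 Ribosomal_S24e genes. Medians were -1.92, -0.77 and -1.39 in that order, and all 3 Ribosomal_S24e changes were negative (-1.56 to -0.75). DESeq2 called 2 Ribosomal_S24e genes lower, and the fit over all 9 libraries called 3. Sobic.007G019100 (chromosome 7, 1804107 to 1806211) read 6.89, 7.31 and 5.64 CPM in severe libraries, against 16.4, 16.2 and 16.5 in control libraries, a change of -1.31 (SE 0.41). Of 9 genes with the S4 RNA-binding domain, found in ribosomal and RNA-modifying proteins, 0 rose and 6 fell (median -1.93). The S4 gene Sobic.003G294300 (chromosome 3, 62657894 to 62664695) read 3.48, 7.21 and 5.69 CPM in severe libraries, against 19.1, 19.9 and 23.7 in control libraries, a change of -1.93 (SE 0.57). Severe library 2 is the closest to control and still well below it.

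Other families that handle RNA or DNA had other counts. Genes with an RNA recognition motif had 76 of 202 higher (37.6%) and 32 lower (15.8%, median 0.34). Total-count scaling turned that median to -0.03 and left 44 and 31. Without control replicate 2 the counts were 49 and 23. Of 34 histones, 11 rose (32.4%, near the share over all genes) and 4 fell (median 0.79), or 17 and 6 by DESeq2. Of 53 pentatricopeptide repeat genes (PPR), which process organelle transcripts, 10 rose and 23 fell (median -1.29), or 5 and 15 without control replicate 2 and 8 and 15 without control replicate 3. Sobic.001G520700 (chromosome 1, 78616914 to 78621055) read 1.66, 1.30 and 0.883 CPM in severe libraries, against 12.01, 15.1 and 9.51 in control libraries, a change of -3.26 (SE 0.83). All severe libraries are far below control.

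Families known from plastids, among other places, fell more often as well. Of 15 rhodanese-domain genes, 1 rose and 8 fell (median -1.07). Sobic.002G152700 (chromosome 2, 45418782 to 45421703) read 3.40, 2.69 and 2.36 CPM in severe libraries, against 71.3, 53.2 and 69.8 in control libraries, a change of -4.53 (SE 0.92, edgeR quasi-likelihood test, Benjamini-Hochberg adjusted p = 0.000221). Of 21 FKBP-type prolyl isomerases, which help proteins fold, 4 rose and 10 fell (median -1.97). Sobic.004G234200 (chromosome 4, 58252479 to 58255024) read 23.4, 14.2 and 17.4 CPM in severe libraries, against 163, 119 and 141 in control libraries, a change of -2.95 (SE 0.69). Severe library 1 is the highest of its group and far below control. One FKBP gene moved strongly the other way, Sobic.010G134700 (chromosome 10, 19878437 to 19882014), which read 88.3, 62.9 and 86.1 CPM in severe libraries, against 0.448, 0.130 and 0.0876 in control libraries, a change of 8.45 (SE 1.79) that was 9.45 without control replicate 1. Of 16 ferredoxin-type genes (Fer2), 5 rose (31.25%, near the share over all genes) and 8 fell (50.0%, median -1.30).

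Ion transport families had members in both directions. Of 11 tested Na+/H+ exchangers, a family that moves sodium and other cations across membranes in exchange for protons, 5 rose and 1 fell (median 1.11), or 8 and 1 without severe replicate 1. Sobic.002G156000 (chromosome 2, 47371978 to 47383549) read 69.5, 66.9 and 49.3 CPM in severe libraries, against 20.1, 22.8 and 19.4 in control libraries, a change of 1.58 (SE 0.43). The exchanger that fell, Sobic.006G271800 (chromosome 6, 60349768 to 60361342), read 37.6, 64.8 and 60.4 CPM in severe libraries, against 159.7, 148 and 165 in control libraries, a change of -1.54 (SE 0.47). Severe library 1 is the lowest, and all severe libraries are below control. Of 22 potassium transporters (K_trans), 11 rose and 5 fell (median 0.72). Sobic.001G379900 (chromosome 1, 66813262 to 66819613) read 37.6, 55.2 and 70.6 CPM in severe libraries, against 6.14, 6.24 and 8.72 in control libraries, a change of 2.95 (SE 0.72). Sobic.002G001800 (chromosome 2, 262198 to 272669) read 0.158, 0.144 and 0.0491 CPM in severe libraries, against 42.2, 48.7 and 49.2 in control libraries, a change of -8.62 (SE 1.64, edgeR quasi-likelihood test, Benjamini-Hochberg adjusted p = 0.000157). It had the largest fall of the potassium transporters, with nearly no reads in any severe library.

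Calcium and anion carriers showed the same mixture. Of 13 cation ATPases (Cation_ATPase_C), pumps of calcium, protons or sodium, 8 rose and 3 fell (median 1.74). Sobic.009G020900 (chromosome 9, 1858987 to 1863702) read 175, 105 and 87.8 CPM in severe libraries, against 16.3, 12.1 and 8.501 in control libraries, a change of 3.32 (SE 0.83). The control libraries all lie far below the severe ones. Each of the 10 tested sulfate transporters passed, 4 higher and 6 lower (median -1.78). Sobic.003G278600 (chromosome 3, 61460901 to 61468176) read 314, 157 and 90.2 CPM in severe libraries, against 2.73, 3.60 and 5.48 in control libraries, a change of 5.57 (SE 1.35), while Sobic.001G470600 (chromosome 1, 74337027 to 74344195) read 0, 0.481 and 0.442 CPM in severe libraries, against 121, 82.0 and 102 in control libraries, a change of -8.23 (SE 1.88). The family thus held rises and falls of more than 16-fold side by side. Of 5 tested dicarboxylate carriers (C4dic_mal_tran), the family of the slow anion channels of guard cells, 2 rose and 2 fell. Sobic.009G081700 (chromosome 9, 11630988 to 11646147) read 806, 326 and 175 CPM in severe libraries, against 0.448, 0.433 and 0.131 in control libraries, a change of 10.31 (SE 2.35) that was 9.56 without severe replicate 1. Of 58 sugar transporters, 26 rose and 16 fell (median 1.00), and of 61 mitochondrial carriers, 27 rose and 10 fell (median 0.67).

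**Figure D4:**
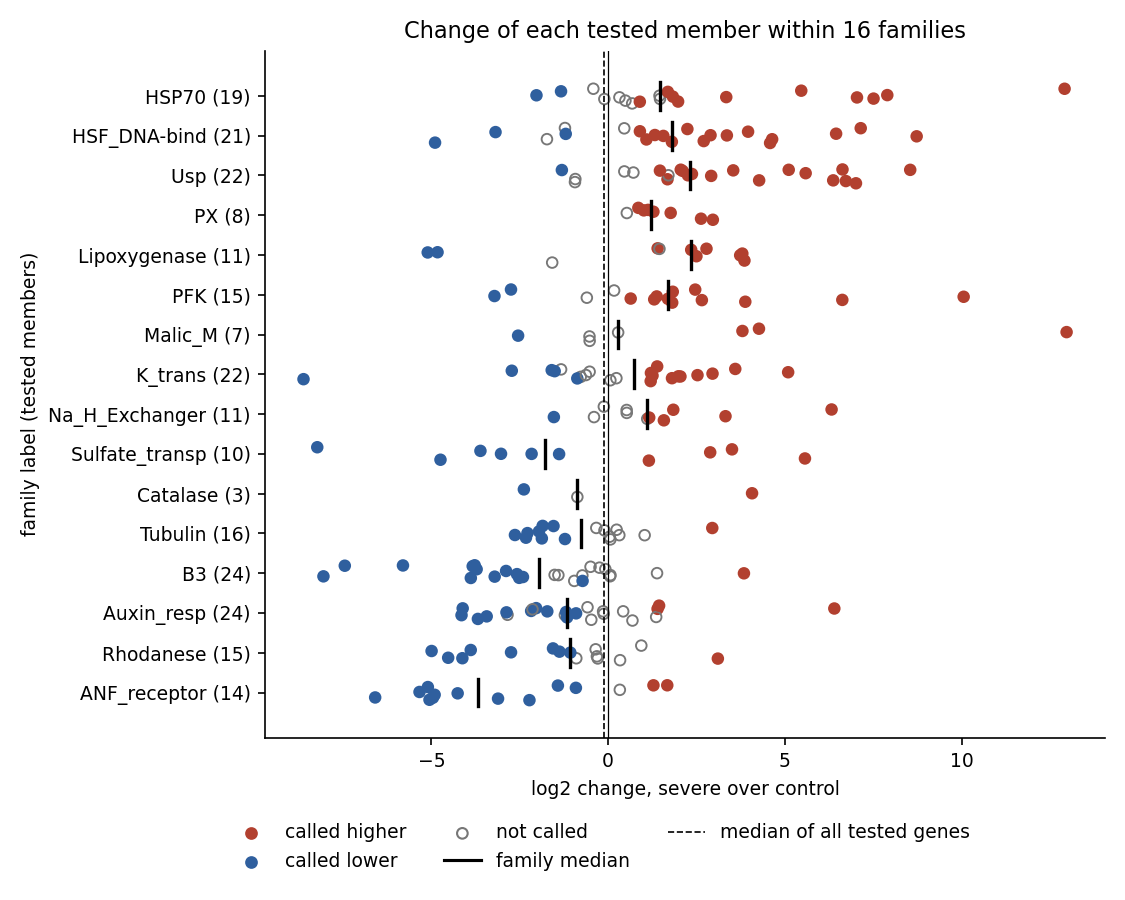
Log2 change, severe over control (x axis), of each tested member of 16 families (y axis, number tested in brackets), filled red where called higher, filled blue where called lower and open where not called, with a bar at the family median and a dashed line at the median of all tested genes (-0.13). PX members are all above 0, ANF_receptor members are mostly below it, and the sulfate transporters fall into members on either side with none near 0.

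Most phosphofructokinase genes rose. Of 15 genes with the phosphofructokinase label (PFK), the step that commits sugars to glycolysis, 11 rose and 2 fell (median 1.69), or 7 and 1 without control replicate 1 or 2. Sobic.010G041400 (chromosome 10, 3211354 to 3215651) read 191, 266 and 181 CPM in severe libraries, against 69.0, 57.2 and 55.3 in control libraries, a change of 1.81 (SE 0.50). All severe libraries lie above control by a similar distance. Of 10 pyruvate kinases (PK), which make pyruvate at the end of glycolysis, 5 rose and 1 fell (median 0.95). Of 5 alternative oxidase genes (AOX), which let mitochondria pass electrons to oxygen without making ATP, 3 rose and 0 fell (median 3.48). Sobic.004G270500 (chromosome 4, 61476884 to 61478658) read 407, 275 and 227 CPM in severe libraries, against 27.6, 27.0 and 26.9 in control libraries, a change of 3.48 (SE 0.80, edgeR quasi-likelihood test, Benjamini-Hochberg adjusted p = 0.000480). In control the 3 values lie within 1 CPM of each other.

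Malic enzymes (Malic_M), which turn malate into pyruvate and in sorghum leaves also serve C4 photosynthesis, did not move as a family. Of 7 measured, 3 rose and 1 fell. Their median of 0.28 was turned to -0.05 by total-count scaling. Sobic.009G108700 (chromosome 9, 43545770 to 43551420) read 851, 842 and 522 CPM in severe libraries, against 38.7, 42.7 and 33.7 in control libraries, a change of 4.27 (SE 0.95, edgeR quasi-likelihood test, Benjamini-Hochberg adjusted p = 0.000395). Severe library 3 is the lowest of its group and still far above control. Sobic.003G292400 (chromosome 3, 62488685 to 62493225) read 447, 299 and 459.7 CPM in severe libraries, against 0, 0 and 0.131 in control libraries. It had 21229 counts over the severe libraries and 3 over the control libraries, all 3 in control replicate 3. Scaled for library size this is a ratio of 8971 (95% counting interval 3069 to 43505). The malic enzyme with the most reads in control, Sobic.003G036200, read 272, 171 and 651 CPM in severe libraries, against 454, 561 and 563 in control libraries, and its groups overlap. It did not pass, with a change of -0.53 (SE 0.55).

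Enzymes of detoxification and protection were mixed. Of 14 aldehyde dehydrogenases (Aldedh), which remove reactive aldehydes and make the osmolyte betaine, 6 rose (42.9%) and 2 fell (14.3%, median 0.73). Over all tested genes these shares were 30.4% and 30.1%. Sobic.009G212600 (chromosome 9, 55816131 to 55822788) read 355, 266 and 253 CPM in severe libraries, against 17.7, 14.7 and 20.8 in control libraries, a change of 4.04 (SE 0.87). Of 9 tested glyoxalases, which clear the toxic by-product methylglyoxal, 5 rose and 1 fell (median 1.54). Sobic.007G069200 (chromosome 7, 7703151 to 7706621) read 909, 573 and 609.6 CPM in severe libraries, against 273, 224 and 220.1 in control libraries, a change of 1.54 (SE 0.51). Severe library 1 is the highest, and no severe value reaches down to control. The 3 catalases, which break down hydrogen peroxide, went apart. Sobic.010G274500 read 1679, 844 and 733 CPM in severe libraries, against 59.5, 70.2 and 63.9 in control libraries (change 4.07, SE 1.00). Sobic.004G011566 read 53.4, 303 and 514 CPM in severe libraries, against 1397, 1695 and 1454 in control libraries (change -2.38, SE 1.00, -3.08 without severe replicate 3), and its call was lost without severe replicate 2 and without any 1 of the control replicates. The third catalase, Sobic.001G517700, did not pass here (change -0.87, SE 0.40) and fell under DESeq2, total-count scaling and the fit over all 9 libraries.

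One polyamine enzyme gained a very large share of reads. Of 3 genes of the SAM_decarbox label, S-adenosylmethionine decarboxylases, which feed the synthesis of spermidine and spermine, Sobic.004G211900 (chromosome 4, 56152325 to 56153873) read 9813, 3864 and 2675 CPM in severe libraries, against 223, 189.9 and 272 in control libraries. The severe library with the least reads of it was still far above every control library, and the change of 4.58 (SE 1.28) was 3.90 without severe replicate 1. Sobic.006G135600 read 1862, 975 and 963 CPM in severe libraries, against 675, 659 and 945 in control libraries and did not pass (change 0.74, SE 0.48). Sobic.002G206700 fell, with 0.950, 0.433 and 0.491 CPM in severe libraries, against 9.41, 8.32 and 9.90 in control libraries and a change of -3.90 (SE 0.96).

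Enzymes that modify small molecules were among the labelled genes with the largest falls. The cytochrome P450 gene Sobic.002G272700 (chromosome 2, 65585643 to 65588410) read 0, 0 and 0 CPM in severe libraries, against 338, 288 and 334 in control libraries. With 0 counts in severe and 21804 in control, it was at least 5733-fold lower against a limit of 3 counts over the group, for counting error only. The glycoside hydrolase Sobic.008G080400 (Glyco_hydro_1, chromosome 8, 13754078 to 13757147) read 0.237, 0.288 and 0 CPM in severe libraries, against 689, 548 and 283 in control libraries, a change of -11.49 (SE 2.58) that was -12.25 without severe replicate 2 and -10.85 without severe replicate 3. An aldo-keto reductase, Sobic.001G274600 (chromosome 1, 53159900 to 53161867), had 1 count over the severe libraries and 17914 over the control libraries, read 0, 0 and 0.0491 CPM in severe libraries, against 304, 256 and 229 in control libraries, and the ratio of control over severe was 14130.3 (95% counting interval 2536 to 558149). The P450 family as a whole was balanced, with 56 of 174 higher and 47 lower (49 and 51 under total-count scaling). UDP-glycosyltransferases, which attach sugars to small molecules, had 51 of 125 higher and 28 lower (median 0.86). Sobic.002G413200 (chromosome 2, 76089627 to 76091876) read 58.3, 30.8 and 56.7 CPM in severe libraries, against 0, 0 and 0 in control libraries, and with no control count it was at least 1069.6-fold higher by the same limit.

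Immune receptor genes fell more often than they rose. Of 184 genes with an NB-ARC domain, the nucleotide-binding core of intracellular immune receptors, 25 rose and 87 fell, with a median of -1.41. Sobic.008G177900 (chromosome 8, 61185575 to 61189955) read 7.76, 20.2 and 13.7 CPM in severe libraries, against 314, 286 and 303 in control libraries, a change of -4.44 (SE 1.03). Each severe library holds a small remnant of the control level. Sobic.010G276800 (chromosome 10, 60984333 to 60988840) read 216, 173 and 163 CPM in severe libraries, against 10.8, 9.75 and 7.89 in control libraries, a change of 4.28 (SE 0.88, edgeR quasi-likelihood test, Benjamini-Hochberg adjusted p = 0.000244). Reads of genes with similar sequence may be split by the counting, and how alike these genes are was not examined. Of the 324 genes with the label, 140 were not tested. Genes with the ANF_receptor label, which in plants marks glutamate-receptor-like channels, fell in 11 of 14 and rose in 2 (median -3.69). Sobic.010G231500 (chromosome 10, 57437664 to 57443428) read 1.27, 8.51 and 2.75 CPM in severe libraries, against 124, 145 and 112 in control libraries, a change of -4.91 (SE 1.34) that was -5.95 without severe replicate 2.

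In 2 pathogenesis-related families the direction depended on the fit. Of 25 thaumatin-like proteins, 9 rose and 4 fell (median 0.72), but without severe replicate 1 the counts were 8 and 9 with a median of -1.10, and total-count scaling turned the median to -0.05. Sobic.003G331700 (chromosome 3, 65644339 to 65645493) read 4468, 1507 and 1772 CPM in severe libraries, against 1.66, 1.34 and 0.570 in control libraries, a change of 11.08 (SE 2.45) that was 10.49 without severe replicate 1. Sobic.001G439200 (chromosome 1, 71728127 to 71733516) read 0.158, 0.144 and 0.147 CPM in severe libraries, against 19.98, 17.9 and 16.6 in control libraries, a change of -6.87 (SE 1.34). The severe values are close to the counting limit in all libraries. Of 39 glycoside hydrolases of family 17, which include the defence glucanases, 15 rose and 13 fell (median 0.34), or 16 and 19 with a median of -0.26 in the fit over all 9 libraries. Their median also turned to -0.12 under total-count scaling. Sobic.001G357900 (chromosome 1, 64761772 to 64767463) read 1522, 743 and 725 CPM in severe libraries, against 0.358, 0.476 and 0.263 in control libraries, a change of 11.39 (SE 2.27). Control libraries hold only traces of it.

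Chromosomes differed in their median change, a difference that was not tested. The median change was -0.54 on chromosome 5 and -0.44 on chromosome 8, where 36.1% and 34.1% of tested genes fell, against medians from -0.21 to -0.01 on the other 8 chromosomes. Chromosomes 5 and 8 held 48 and 26 tested NB-ARC genes, while chromosome 2, with 30, had a median of -0.16. Without the NB-ARC genes the medians were -0.51 on chromosome 5 and -0.42 on chromosome 8. In 48 places, 5 or more neighbouring tested genes all changed at least 4-fold in 1 direction, 14 upward and 34 downward. With 18.1% and 20.1% of all tested genes changed that much each way, some runs could arise without any grouping. How many was not tested, and overlapping genes count as separate members. The balance of these runs depended on the fit, with 26 upward and 19 downward by DESeq2, 21 and 20 with no filter on low counts and 5 and 42 under total-count scaling.

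Several runs held genes with the same label. On chromosome 2, from 66530881 to 66560470, 6 neighbouring Auxin_inducible genes all fell, with a median of -5.11. Their levels in control were low to moderate, and Sobic.002G285300 read 0.712, 4.95 and 0.491 CPM in severe libraries, against 19.6, 11.96 and 20.03 in control libraries (change -3.04, SE 1.19). Its change was -4.84 without severe replicate 2, and its call was lost without control replicate 1 or 3. Another, Sobic.002G285450, read 0, 0 and 0 CPM in severe libraries, against 11.5, 8.36 and 7.58 in control libraries. That gene was picked after its values were seen, and it had no read in any severe library. On chromosome 7, from 57802860 to 57849727, 3 of 5 falling neighbours had the same label (median -5.40). On chromosome 2, from 59997622 to 60117238, 4 of 5 genes in a falling run carried the ANF_receptor label (median -4.96), and Sobic.002G209200 read 1.19, 0.625 and 0.245 CPM in severe libraries, against 12.6, 16.2 and 9.51 in control libraries. On chromosome 1, from 74331512 to 74371001, 3 of 5 falling neighbours were sulfate transporters (median -4.38), Sobic.001G470600 among them. Another gene of that run, Sobic.001G470700, lies within the span of Sobic.001G470600 on the opposite strand, so their reads cannot be told apart here. A rising run of 7 genes on chromosome 2, from 65054217 to 65090996, began with 3 UDP-glycosyltransferases (median 3.03). The tested gene just before that run, Sobic.002G265400, has the same label. It was not called (change 0.84), and its severe and control values overlap. Within the run, Sobic.002G266000 and Sobic.002G266100 overlap in position on the same strand, so their reads may be shared. Neighbours with the same label may have similar sequences, which was not examined, so their reads may not be independent.

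**Figure D5:**
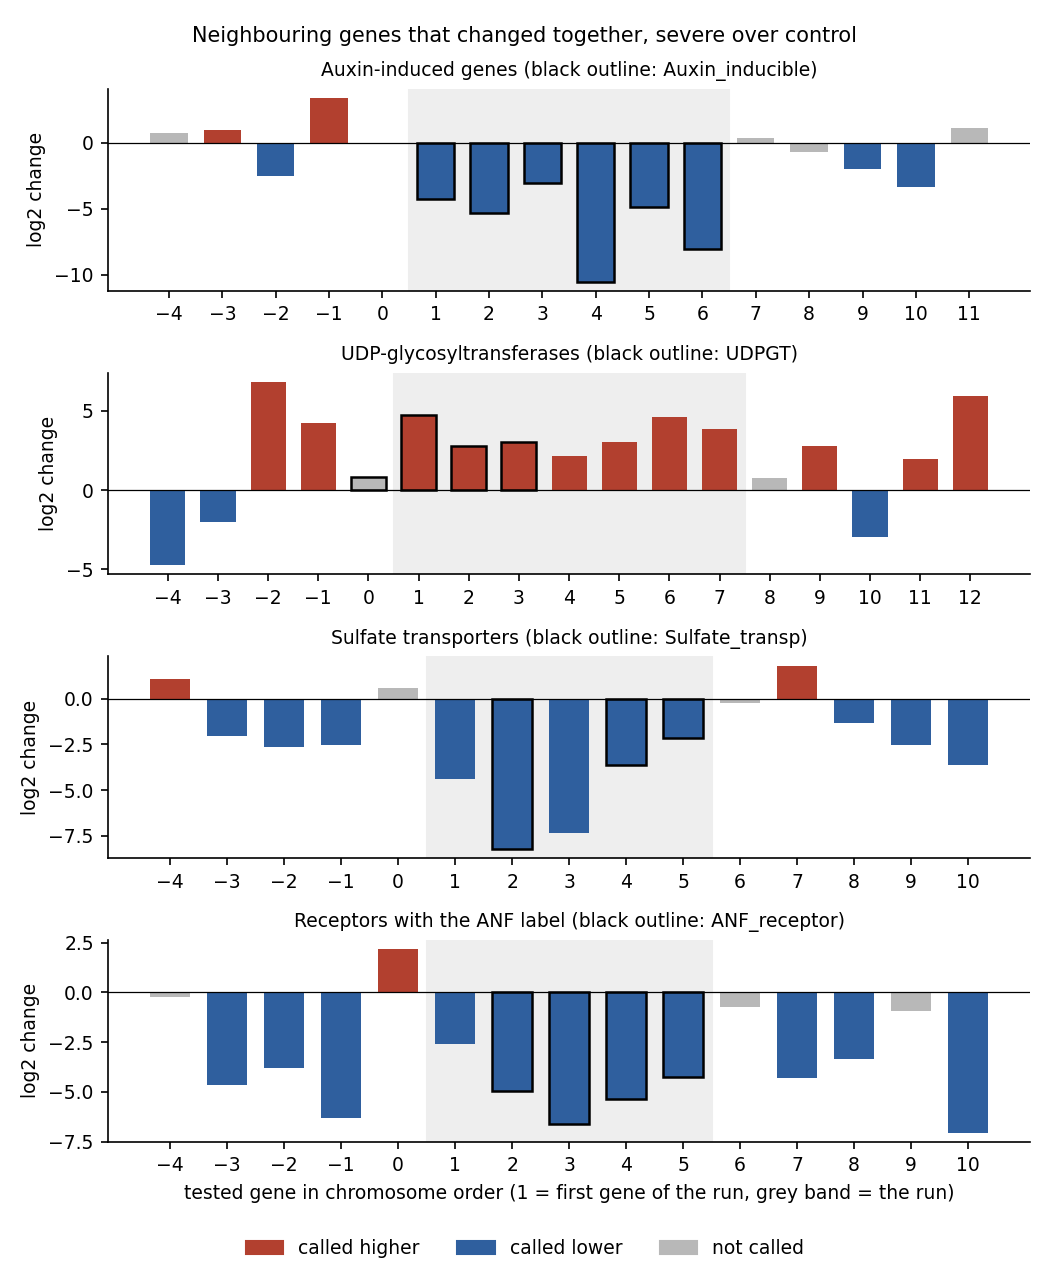
Log2 change, severe over control (y axis), of tested genes in chromosome order (x axis, 1 is the first gene of the run) in 4 runs of neighbouring genes (grey bands) with 5 genes on either side, coloured by call, with a black outline for the label named in each title. All genes inside the bands change at least 4-fold in 1 direction. The flanking genes include called and uncalled ones. At each run, more of them were called in the run's direction than against it.

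The authors' deposited table, made with DESeq2, called 15111 genes between the same groups, 7733 higher and 7378 lower, out of 27979 it tested. Of the 12659 genes called here, 12548 were called in that table, all 12548 in the same direction.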

How the data were processed

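Total leaf RNA was sequenced on an Illumina instrument, per the labels' protocols, and the authors deposited 1 table for the series with raw read counts per gene in 1 column per library. HISAT2 2.0.5 and DESeq2 1.20.0 are named in the submitters' processing notes. For the genome build, the read counter and strandedness, the sources used here name nothing. The table also holds the authors' log2 change and adjusted p-value for severe against control, used here only for the closing comparison of calls.

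The 3 severe and 3 control libraries were fitted alone, on the counts as deposited, with edgeR 4.0.16 in R 4.3.3 (filterByExpr, TMM scaling, glmQLFit and glmQLFTest, 2-sided), and p-values were adjusted by the Benjamini-Hochberg method over all 20926 tested genes. The SE was taken from the log2 change and the normal quantile that corresponds to its p. The fit recovered known changes in simulated counts, in which few genes changed and both groups had the same spread. In these libraries most genes changed and the spread differed between groups. The simulation therefore cannot show how the scaling or the calls behave here. A family is all genes with the same protein family label in the table's own annotation, which 11153 genes carry. The ribosomal proteins are the exception, a pool of several labels. Members, lists and families were chosen with earlier results of these data known, so their counts are descriptions with no test of their own. Of 55 lists of labels, 9 matched no gene. Named genes were taken by adjusted p from each list (up to 3 each way), and by size from the 10 largest labelled and 5 largest unlabelled changes each way. Those genes had to pass the test, have a mean of at least 5 CPM and show no overlap between the groups. The 10 highest means per group and every member of lists of up to 8 were added without these conditions. An exact permutation test of 3 against 3 libraries cannot go below 0.1, so no single-gene test was added. Alternatives were another scaling, another filter, DESeq2 1.42.0, replicate number as a block, all 9 libraries in the fit, and each library left out in turn. Replicate numbers were not used as pairs in the main fit, since the labels do not say whether they pair the libraries. No sequence is shown, and promoters were not analysed here.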

Additional observations from a re-analysis of the deposited data

How the results depend on the processing

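The number of genes called stayed within 1.5 times of 12659 under every alternative run, and no gene was called in the opposite direction under any. It was 12913 with median-of-ratios scaling, 10783 with total counts as the only scaling, 15147 with DESeq2, 13467 with no filter on low counts, 11851 with a minimum of 1 CPM in 3 libraries and 14858 with all 9 libraries in the fit. Leaving out 1 library gave 9827 to 13916, lowest without a control library. With any 1 library left out, 8914 genes kept their call and direction. With replicate number as a block, 12095 genes were called, 5816 higher and 6279 lower, and 5 of the 514 named genes lost their call. The deviations of same-numbered libraries correlated at 0.25, -0.01 and 0.27, and those of differently numbered libraries at -0.28 to 0.14. With 3 libraries per group these values cannot decide whether the numbers pair the libraries. Of the 514 named genes, 25, 26 and 26 lost their call without control replicate 1, 2 and 3, and 4, 11 and 10 without severe replicate 1, 2 and 3. Total-count scaling ended 15 calls and made 2. Many named genes were chosen for a small adjusted p or a large change, and others had no call to lose. These counts therefore do not measure stability over all genes. At this depth 8085 genes with counts were too low to be tested. The causes of these shifts were not tested.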
